A study of Nematostella vectensis with 84 samples.

Results

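The comparison sets 6 RNA libraries labelled calcium-free KSW T0 against 6 labelled cytochalasin D T0, which are 12 of the 84 libraries of the series. They were taken by title, letters A to F in each treatment, and the letter pairs A/D, B/E and C/F were kept as a block. The RNA was that of oral disc and tentacle tissue of the starlet sea anemone, Nematostella vectensis, at the adult stage, and T0, time point 0, is the earliest label of both treatments. The study followed hourly recovery from trauma. By the labels neither group is an untreated control. One group is labelled with calcium-free KSW, a medium named there by that abbreviation alone, and the other with cytochalasin D. The sources used here do not say how long after the exposure T0 fell. The strain, the doses and the lengths of exposure are likewise not given. Nor do the labels tie libraries to separate animals, and p-values therefore rest on library-to-library spread, which may be technical. The design text of the series counts 3 replicates in each of 2 conditions at every time point. The labels put all 6 letters of a group under 1 treatment and 1 time point and name no second condition. Whether letters A to C and D to F stand for those 2 conditions is therefore not known.

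Cytochalasin D caps growing actin filaments and so disturbs the cell cortex, microvilli and stereocilia. Removing calcium loosens cadherin junctions and other extracellular links that need the ion. The tentacles of sea anemones carry hair bundle mechanoreceptors, which have actin-filled stereocilia joined by such links, next to stinging cells, gland cells, muscle and nerve cells.

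Calcium-free libraries held 249450 to 443489 reads and 14450 ± 1411 detected gene models, and cytochalasin D libraries 284200 to 379182 reads and 14387 ± 619 gene models (SD, n = 6 each). The 10 genes with most reads took 30.8 ± 5.0% of the reads of a calcium-free library and 29.3 ± 2.19% of a cytochalasin D library (SD, n = 6). The numbers that end the titles lie lower for calcium-free than for cytochalasin D libraries, without overlap. The labels do not explain these numbers, and the treatment and whatever they stand for cannot be told apart. The gene models carry NVE identifiers with no names beside them, and 0 of 23510 matched the reference gene table (assembly jaNemVect1.1). So no gene is described by function, no list of genes by function was tested, the labelled tissue could not be checked against marker genes, no sequence is shown, and only 2 identifiers are printed in each direction. In bulk tissue, fewer cells of a type and less RNA per cell cannot be told apart.

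The first axis of spread among the libraries moved with both the treatment and the letters. Principal component 1 held 25.8% of the variance among the 12 libraries. Scores of calcium-free libraries ran from -11.1 to 8.81 in letters D to F and from -19.3 to -6.43 in letters A to C. Those of cytochalasin D libraries ran from 9.31 to 23.6 in letters D to F and from -5.40 to 6.22 in letters A to C. The calcium-free libraries D to F thus overlapped both the calcium-free and the cytochalasin D libraries A to C, whereas the cytochalasin D libraries D to F lay beyond all others. Principal component 2 held 18.5% of the variance and followed the letter pairs. Calcium-free libraries scored 17.4 and 17.8 in A/D, 3.29 and 1.73 in B/E, and -6.16 and -8.40 in C/F. Cytochalasin D libraries scored 9.63 and 4.82 in A/D, -3.92 and -8.27 in B/E, and -12.4 and -15.5 in C/F.

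**Figure D1:**
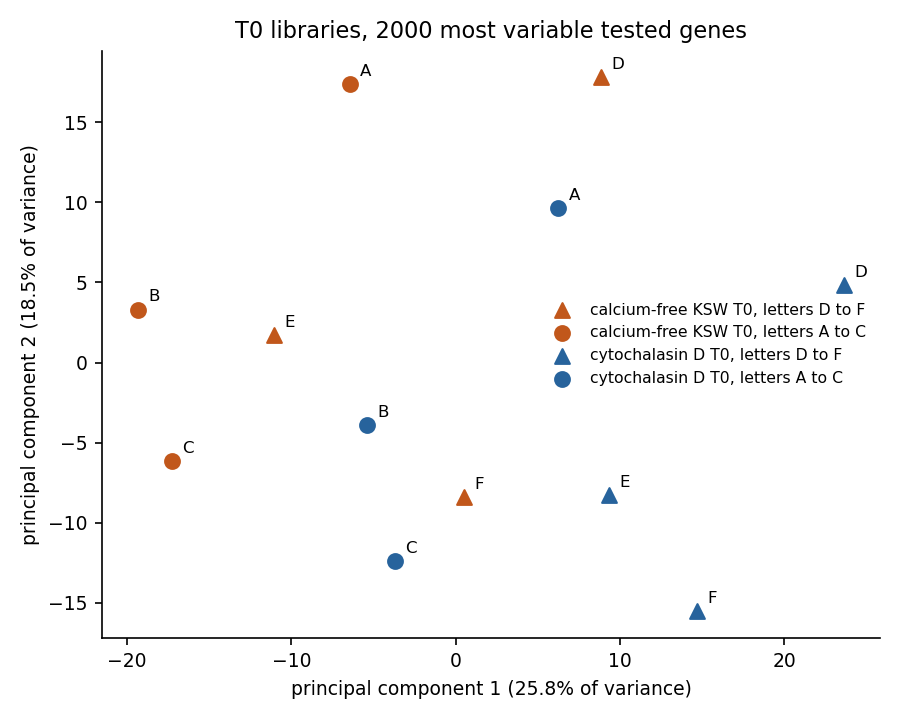
Scores of the 12 T0 libraries on the first 2 principal components of log2 CPM (axes in score units, with the share of variance of each), with colour for the treatment, shape for the letters and the letter beside each point. Cytochalasin D libraries D to F lie farthest right, at 9.31 to 23.6, and calcium-free libraries B, C and E farthest left, at -19.3 to -11.1.

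At T0, 101 of 3258 tested genes differed between the treatments, 48 higher and 53 lower in calcium-free KSW than in cytochalasin D (edgeR quasi-likelihood test with the letter pair as a block, Benjamini-Hochberg adjusted p under 0.05). That is 3.1% of the tested genes, 1.47% in the higher and 1.63% in the lower direction. The called differences reached further in the lower direction. Genes higher in calcium-free KSW had log2 fold changes from 0.50 to 1.92 with a median of 0.89; 18 of the 48 exceeded 2-fold and 0 exceeded 4-fold. Genes lower in calcium-free KSW had log2 fold changes from -4.94 to -0.53 with a median of -1.14. Of these 53, 32 exceeded 2-fold and 10 exceeded 4-fold. In most of these 10 genes the libraries of the treatments overlapped. All 10 were higher in letters D to F than in A to C of cytochalasin D, by 1.30 to 4.13 on the log2 scale. Some of them held 0 to 6.73 CPM in calcium-free libraries A to C, a few reads at most. The median log2 fold change over all tested genes was 0.01.

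The 53 genes lower in calcium-free KSW held 0.566% to 0.988% of the reads of calcium-free libraries, with a median of 0.697%, and 1.05% to 2.25% of those of cytochalasin D libraries, with a median of 1.60%. The 48 higher genes held 0.842% to 1.62% of the reads of calcium-free libraries (median 1.28%) and 0.597% to 0.999% of those of cytochalasin D libraries (median 0.754%). These shares did not overlap between treatments for the lower genes and overlapped for the higher genes, but after TMM scaling neither sum overlapped: the higher genes summed to 11167 to 16074 CPM in calcium-free libraries and 7134 to 10196 CPM in cytochalasin D libraries. These genes were chosen by the same difference, so the sums only show where it lay. All 6 libraries of one treatment lay above all 6 of the other for 13 of the 48 and 11 of the 53 genes, against 1.6% of all tested genes. Of the 100 most abundant genes, which took 42.9% to 59.2% of the reads, 1 was higher and 1 lower, a share near the 3.1% of all tested genes. Few genes were present in 1 treatment alone. Of all 23510 gene models, 5 with 20 or more reads in cytochalasin D were absent from calcium-free KSW, and 0 the other way round. Of these 5, 0 were seen in all 6 cytochalasin D libraries and 2 were seen in 2 or fewer.

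**Figure D2:**
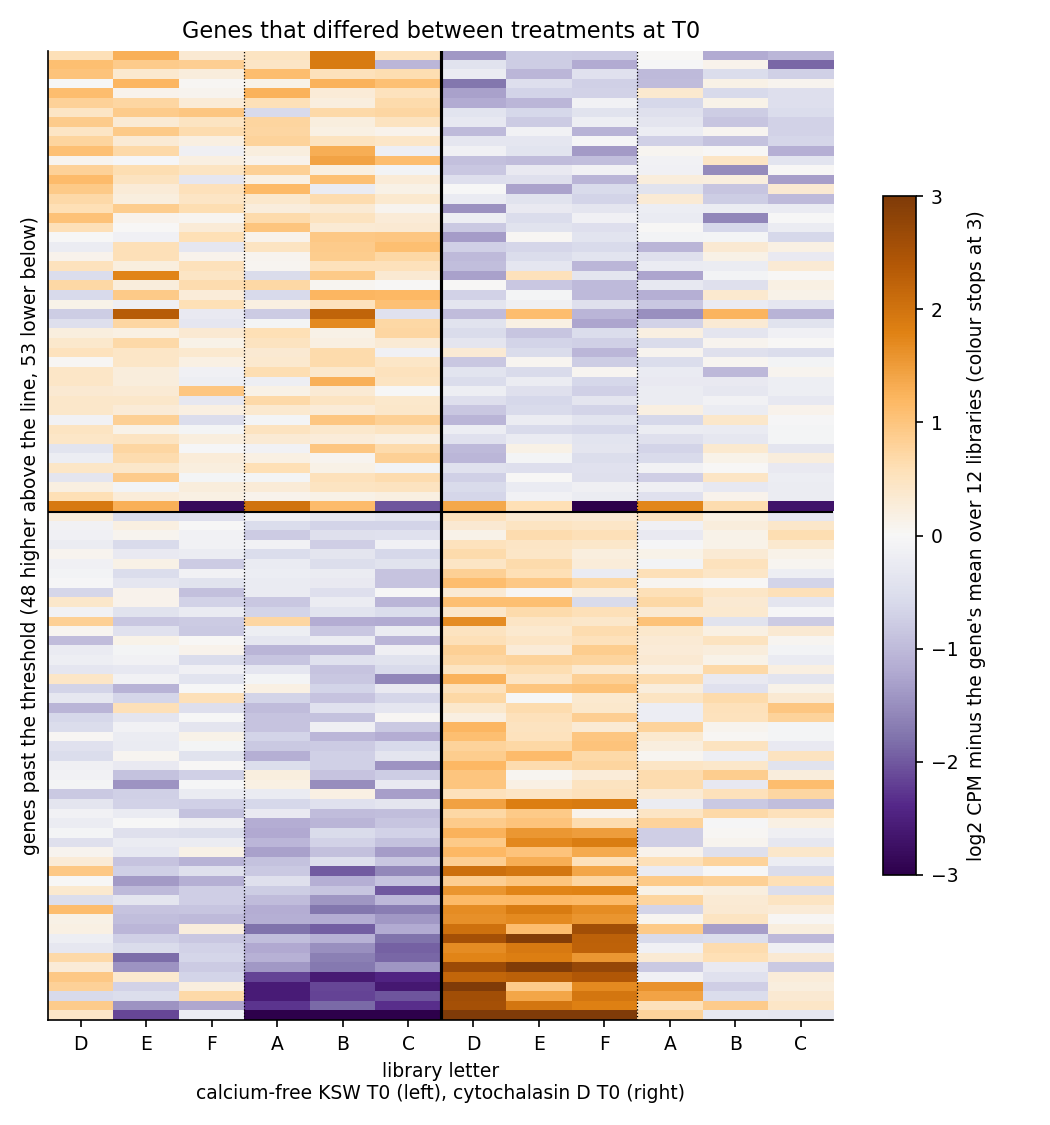
Each line is 1 of the 101 genes, ordered by the difference in mean log2 CPM, and each column 1 T0 library; the colour gives log2 CPM minus the mean of that gene over the 12 libraries, with calcium-free KSW on the left and cytochalasin D on the right. The 48 higher genes lie above the line and the 53 lower genes below it, and most genes at the bottom are highest in cytochalasin D libraries D, E and F. The gene just above the line is low in letters C and F of both treatments.

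Levels of single genes are given as CPM, counts per 1000000 reads of the tested genes after TMM scaling. NVE8029 had the smallest p of the higher genes. It had 248, 168.3, 204, 271, 179.2 and 202 CPM in calcium-free libraries A to F, against 109.5, 75.4, 86.1, 115, 80.3 and 126.8 CPM in cytochalasin D libraries A to F. Every calcium-free library lay above every cytochalasin D library. It averaged 212 ± 39.8 CPM with calcium-free KSW and 98.8 ± 21.0 CPM with cytochalasin D (n = 6 each, SD). The log2 fold change was 1.09 (SE 0.15; edgeR, Benjamini-Hochberg adjusted p = 4.81e-04), and the letter pairs A/D, B/E and C/F differed by 1.16, 1.09 and 0.91 in mean log2 CPM.

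NVE9824 had the largest rise of the genes eligible to be named. Its level was 100.4, 278, 103.6, 107.6, 179.2 and 90.4 CPM in calcium-free libraries A to F and 70.4, 26.9, 29.9, 22.3, 38.5 and 37.7 CPM in cytochalasin D libraries A to F. The groups did not overlap, but libraries B and E stood above the rest of calcium-free KSW. It averaged 143.2 ± 73.5 CPM with calcium-free KSW and 37.6 ± 17.2 CPM with cytochalasin D (n = 6 each, SD), and its log2 fold change was 1.92 (SE 0.28; edgeR adjusted p = 4.81e-04). Its letter pairs differed by 1.22, 2.56 and 1.36 on the log2 scale, and without libraries B and E of both treatments it no longer passed (log2 fold change 1.33; edgeR adjusted p = 0.0683).

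NVE1314, with the smallest p of all genes, was lower in calcium-free KSW. It had 67.0, 47.1, 63.96, 95.7, 104.9 and 79.8 CPM in calcium-free libraries A to F, against 239, 172.3, 195, 315, 321 and 315 CPM in cytochalasin D libraries A to F. The groups did not overlap, and in both treatments letters D to F lay above letters A to C. It averaged 76.4 ± 21.4 CPM with calcium-free KSW and 259.5 ± 66.7 CPM with cytochalasin D (n = 6 each, SD), and its log2 fold change was -1.80 (SE 0.22; edgeR adjusted p = 9.03e-05), with letter pair differences of -1.69, -1.64 and -1.70.

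NVE1808 had the largest fold change of all genes called. It had 0, 0, 1, 28, 3 and 13 reads in calcium-free libraries A to F, or 0, 0, 3.05, 111.6, 13.1 and 69.1 CPM, and 37, 24, 17, 598, 419 and 321 reads in cytochalasin D libraries A to F, or 144.7, 64.6, 63.6, 2218, 1345 and 1100.0 CPM. Within each letter the cytochalasin D library was the higher one, but the groups overlapped, because calcium-free D and F lay above cytochalasin D libraries B and C. It averaged 32.8 ± 46.8 CPM with calcium-free KSW and 823 ± 884 CPM with cytochalasin D (n = 6 each, SD), and its log2 fold change was -4.94 (SE 0.89; edgeR adjusted p = 0.00309). Since 2 calcium-free libraries held no read, that fold change rests partly on the prior count of the fit.

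**Figure D3:**
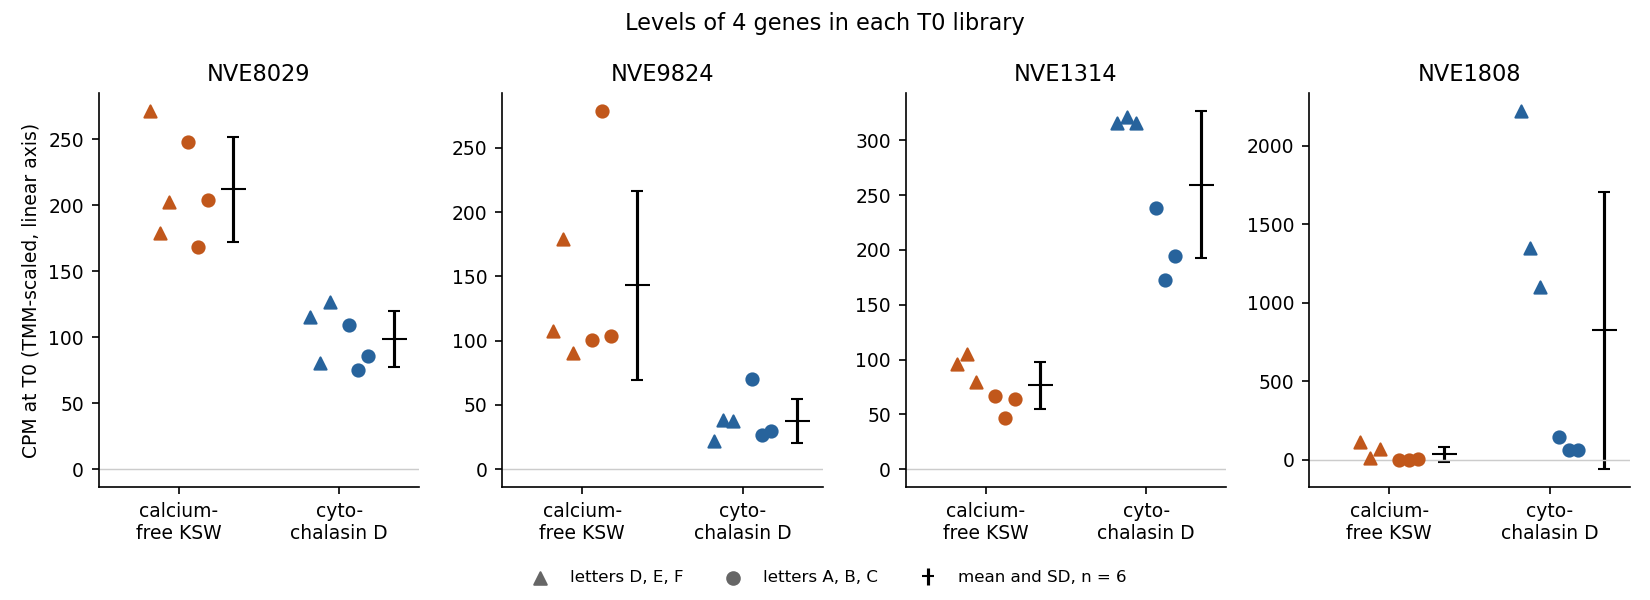
CPM of the 4 named genes in each T0 library on linear axes, with triangles for letters D to F, circles for letters A to C and the mean with SD (n = 6) beside each group. Groups are separate for NVE8029, NVE9824 and NVE1314 and overlap for NVE1808, where cytochalasin D libraries D to F reach 1100.0 to 2218 CPM.

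The count of genes rested on how the letters were treated. With the single letter A to F as a replicate block it was 248 (118 higher, 130 lower) and with a term for letters D to F against A to C beside the letter pair it was 265; both sets held all 101 genes. With no replicate block it was 28 (9 higher, 19 lower). Without calcium-free library A, B or C the count was 49, 51 or 56, and without cytochalasin D library D, E or F it was 35, 44 or 48, whereas the share called lay between 2.55% and 3.94% on leaving out any other library.

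Letters D to F and A to C were then compared within each treatment. The labels do not say what, if anything, sets these letters apart. In calcium-free libraries 61 genes were higher and 26 lower in letters D to F than in A to C, which is 2.67% of the tested genes. In cytochalasin D libraries 66 were higher and 11 lower, or 2.36%. The genes higher in D to F were 1.87% of the tested genes with calcium-free KSW and 2.03% with cytochalasin D, and 21 were in both lists, 34.4% of the calcium-free list and 31.8% of the cytochalasin D list. The 48 and 53 genes were called from these same libraries, so their letter differences are given as values only. The median log2 difference between D to F and A to C of the 53 lower genes was 0.55 with calcium-free KSW and 0.67 with cytochalasin D, against 0.0065 and 0.0045 over all tested genes. For the 48 higher genes it was -0.12 with calcium-free KSW and -0.29 with cytochalasin D.

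For NVE1808 letters D to F exceeded A to C by 5.47 on the log2 scale with calcium-free KSW (SE 0.70; edgeR adjusted p = 3.85e-06) and by 4.13 with cytochalasin D (SE 0.24; edgeR adjusted p = 6.69e-15). NVE8029 and NVE9824 did not pass in either treatment, with log2 differences between D to F and A to C of 0.08 and -0.34 with calcium-free KSW and 0.25 and -0.28 with cytochalasin D (edgeR adjusted p from 0.659 to 0.907). NVE1314 differed by 0.68 with calcium-free KSW and by 0.67 with cytochalasin D (edgeR adjusted p = 0.184 and 0.0555). Depth moved with the letters in calcium-free KSW, where libraries D to F held 249450 to 304762 reads and 12720 to 13940 detected genes and libraries A to C 318814 to 443489 reads and 14832 to 16744 detected genes. In cytochalasin D these were 319507 to 358095 reads and 13707 to 14719 genes in D to F, and 284200 to 379182 reads and 13909 to 15344 genes in A to C. The part of depth in the letter difference was not tested.

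The treatment difference itself was present in both sets of letters. In 1 fit of the 12 libraries, 125 genes differed in letters D to F (3.84%) and 87 in letters A to C (2.67%). With each set of letters fitted alone the order turned round, with 102 genes (3.26%) in D to F and 160 (4.27%) in A to C. All 53 lower genes had the same sign in D to F and 52 of 53 in A to C, and all 48 higher genes had it in both; they were chosen on these same libraries. The median log2 fold change was -1.18 in D to F and -1.02 in A to C for the lower genes, and 0.98 in D to F and 0.84 in A to C for the higher genes. A test of the difference between the 2 sets called 5 of 3258 genes (0.153%; edgeR, 213 at an unadjusted p under 0.05). In 3 of the 5, all among the 53 lower genes, calcium-free KSW averaged 60.01, 99.3 and 101.07 CPM in D to F and 34.3, 107.6 and 45.7 CPM in A to C, while cytochalasin D averaged 593, 523 and 1020.2 CPM in D to F and 53.9, 95.8 and 90.9 CPM in A to C. Of the 4 sets of libraries, letters D to F of cytochalasin D had the highest mean in all 3 genes. The test called 2 genes without calcium-free library A or E or without cytochalasin D library A or C, 3 without calcium-free library B and 9 without calcium-free library D.

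**Figure D4:**
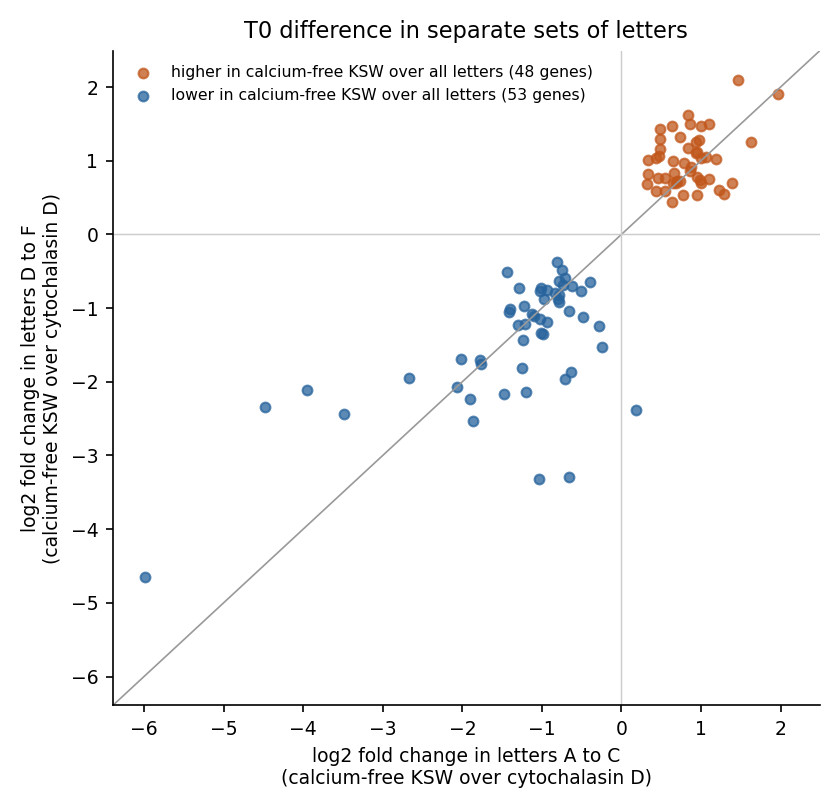
Log2 fold change (calcium-free KSW over cytochalasin D) of the 101 genes in letters A to C (horizontal) and in letters D to F (vertical), with the line of equal values. All but 1 of the genes have the same sign on both axes, and the lower genes are spread more widely than the higher ones.

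A test of whether the treatment difference varied between the 3 letter pairs called 1 of 3258 genes (0.0307%; edgeR, 99 at an unadjusted p under 0.05), which was not among the 101. Without calcium-free library B, C, D or E or cytochalasin D library A, C or D it called 0 (edgeR; 84 to 134 at an unadjusted p under 0.05), and without cytochalasin D library B or E it called 2. All 101 genes had the same sign in all 3 letter pairs, as had 44.4% of the tested genes. The 101 were called from these same libraries with the pair as a block, so their shared sign follows largely from that choice. Calls grew with abundance: split by average level into 3 sets of 1086 genes, 1.20% were called in the lowest set, 2.03% in the middle set and 6.08% in the highest set. The smallest called log2 fold change was 0.97, 0.82 and 0.50 in size in those sets. The 100 most abundant genes, with 1 called higher and 1 lower, did not follow this rise.

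The same contrast was computed in the libraries of T1 to T4, none of which entered the T0 comparison. Of the tested genes it called 3.42% at T1 (1.28% higher and 2.14% lower in calcium-free KSW), 6.17% at T3 (3.1% and 3.07%) and 4.36% at T4 (2.48% and 1.88%). At T2 it called 0% (edgeR; 256 genes had an unadjusted p under 0.05, and DESeq2 called 8). With the single letter as a replicate block T1 had 5.18%, and with no replicate block T1, T3 and T4 had 1.21%, 3.63% and 2.8%. The T2 count rested on calcium-free library F, without which 5.79% were called (1.55% higher, 4.25% lower). The title numbers of the treatments were in separate ranges at these times too.

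Of the 48 genes higher in calcium-free KSW at T0, 48 of 48 tested were also higher at T1 and 38 of 46 at T2 (45 of 48 without library F). At T3 37 of 44 were, and at T4 32 of 43. Of the 53 lower genes, 48 of 49 were also lower at T1 and 40 of 45 at T2 (48 of 50 without F). At T3 39 of 43 were, and at T4 36 of 41. Over all genes tested at T0, the same sign was found for 70.5%, 62.7%, 65.2% and 60.7% at T1 to T4. Their sizes were smaller than at T0, where the choice of genes favours large values. Medians were 0.48, 0.36, 0.46 and 0.37 at T1 to T4 for the higher and -0.89, -0.54, -0.48 and -0.34 for the lower genes.

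In these later libraries 15 higher and 19 lower genes passed again in the same direction at T1, 16 and 16 at T3 and 10 and 10 at T4. Over all genes tested at both times, 3.72%, 5.98% and 3.85% passed in their T0 direction at T1, T3 and T4. At T2 0 did by edgeR, and 14 and 16 did without library F, against 6.39% of all genes. In all, 52 of the 101 passed again in the T0 direction at 1 or more of T1 to T4, and 7 at T1, T3 and T4, against 8.93% and 0.583% of the genes tested at T0. Of the 48 higher genes, 1 passed in the opposite direction at T3, 1 at T4 and 1 at T2 without library F. Over all genes tested at both times, 11 of 2844, 17 of 2647 and 6 of 3113 did so. A test of whether the difference changed over the 5 time points called 1 of 5243 genes (0.0191%; 298 at an unadjusted p under 0.05), a gene that was among the 48; without library F of T2 it called 6.

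**Figure D5:**
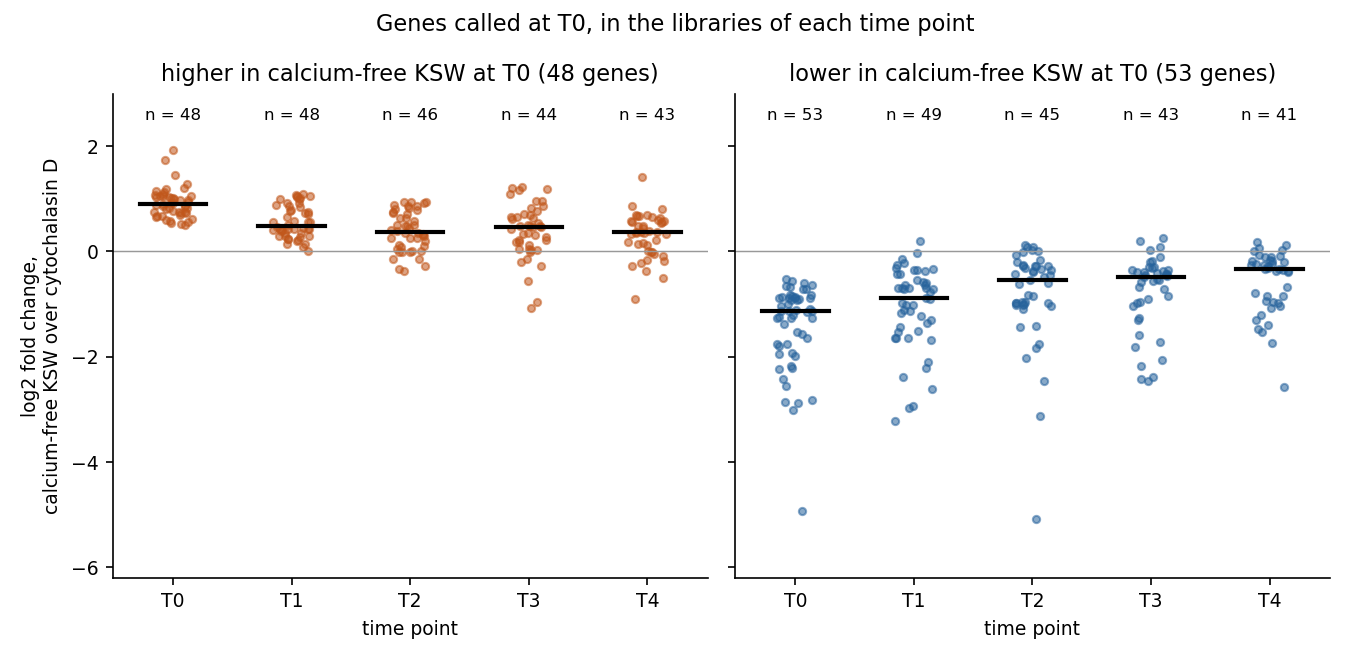
Log2 fold change (calcium-free KSW over cytochalasin D) at T0 to T4 of the genes higher (left) and lower (right) in calcium-free KSW at T0; each point is 1 gene, the bar is the median and n the number of genes tested at that time point. The medians are 0.48, 0.36, 0.46 and 0.37 at T1 to T4 on the left and -0.89, -0.54, -0.48 and -0.34 on the right.

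NVE8029 passed the test again at T1, T3 and T4. At T1 it averaged 166.02 ± 31.4 CPM with calcium-free KSW and 79.5 ± 26.5 CPM with cytochalasin D, at T3 222 ± 32.8 CPM with calcium-free KSW and 103.7 ± 16.8 CPM with cytochalasin D, and at T4 143.07 ± 25.9 CPM with calcium-free KSW and 91.1 ± 20.1 CPM with cytochalasin D (n = 6 each, SD). The log2 fold changes at these times were 1.05, 1.08 and 0.64 (SE 0.19, 0.15 and 0.18; edgeR adjusted p = 0.00826, 8.92e-05 and 0.0423). The T2 value was 0.58 (SE 0.27; edgeR adjusted p = 0.703), and 0.78 without library F (SE 0.15; edgeR adjusted p = 0.00768). The T4 call was lost with the single letter as a replicate block (edgeR adjusted p = 0.0547) and with no replicate block (edgeR adjusted p = 0.0584).

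NVE9824 passed again at T1 and T3, with log2 fold changes of 1.05 ± 0.22 and 0.95 ± 0.27 (SE, edgeR adjusted p = 0.0169 and 0.0349); with no replicate block the T3 call was lost (edgeR adjusted p = 0.0658). It did not pass at T2 or T4, at 0.71 ± 0.44 and 0.48 ± 0.25 (SE, edgeR adjusted p = 0.781 and 0.296). NVE1314 passed at T4, at -1.03 ± 0.28 (SE, edgeR adjusted p = 0.0385, and 0.0583 with no replicate block). Its values were -1.43 ± 0.44 at T1, -0.85 ± 0.43 at T2 and -0.44 ± 0.23 at T3 (SE, edgeR adjusted p = 0.0745, 0.736 and 0.292), all of the T0 sign. With the single letter as a replicate block it also passed at T1 (log2 fold change -1.31; edgeR adjusted p = 0.00826).

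NVE1808 did not pass the filter on low counts at T1 and T4 and was not tested there. Summed over 6 libraries it had 25, 236, 160 and 7 reads with calcium-free KSW at T1 to T4, against 757, 1853, 1405 and 1080.0 reads with cytochalasin D. In calcium-free KSW 3, 3, 3 and 4 of the 6 libraries held no read at T1 to T4, whereas 1 cytochalasin D library of those times did, at T1. Calcium-free T2 library F held 395 CPM of its total, against at most 3.36 in the other T2 libraries of that treatment. With all libraries the T2 difference did not pass, at -5.09 ± 1.74 (log2, SE, edgeR adjusted p = 0.618). Without library F it was -9.40 ± 1.38 (log2, SE, edgeR adjusted p = 0.00186), where 3 of 5 calcium-free libraries held no read. At T3 the difference was -2.38 ± 0.77 (log2, SE, edgeR adjusted p = 0.0687). It was -2.70 ± 0.51 with the single letter as a replicate block (SE, edgeR adjusted p = 6.46e-04) and -2.84 ± 0.97 with no replicate block (SE, edgeR adjusted p = 0.121). The letters that were high in cytochalasin D were not the same over time: at T1 letters D to F reached 48.4 CPM and letters A to C 1093 CPM by library totals.

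Streptomycin, the remaining treatment, was sampled after set exposure times, so its T0 is not the same kind of time point. The title numbers of its 6 T0 libraries span a range that encloses those of calcium-free KSW. Scaled together with the others, NVE8029 averaged 196 ± 36.2 CPM in calcium-free KSW, 166.2 ± 27.1 CPM in streptomycin and 91.1 ± 19.4 CPM in cytochalasin D (SD, n = 6). NVE9824 averaged 133 ± 68.5 CPM in calcium-free KSW, 32.4 ± 12.5 CPM in streptomycin and 34.7 ± 16.2 CPM in cytochalasin D. NVE1314 averaged 70.7 ± 19.4 CPM in calcium-free KSW, 176.9 ± 82.2 CPM in streptomycin and 239 ± 60.4 CPM in cytochalasin D (SD, n = 6). The streptomycin level of NVE9824 was thus near that of cytochalasin D, and that of NVE8029 nearer to calcium-free KSW; these differences were not tested. NVE1808 had no read in streptomycin letters A to C and 7.65, 75.1 and 1384 CPM of the library total in letters D to F. In mean log2 CPM, streptomycin lay between the other treatments for 37 of the 48 higher genes and 38 of the 52 lower genes tested there, and for 29.9% of all 3410 genes tested with the 18 libraries. The 48 and 53 genes were chosen for a difference between calcium-free KSW and cytochalasin D, so nothing about streptomycin is read from these counts. It was closer to calcium-free KSW for 24 of 48 and 25 of 52.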

How the data were processed

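Per the labels' protocols, frozen tissue was extracted with a commercial RNA kit; the library protocol is given there by a citation only. Bowtie2 was used, per the submitters' processing notes; the sources used here give no build, annotation, counting tool, use of strand or treatment of duplicates, so reads of near-identical or overlapping genes may have been split or joined. The authors deposited read counts per gene model, unscaled, in 1 table of 23510 genes and 84 libraries; 0 sample columns were left unused.

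From these counts, genes were kept by filterByExpr, scaled by TMM and tested with edgeR 4.0.16 (limma 3.58.1, R 4.3.3) by the quasi-likelihood test, two-sided, with Benjamini-Hochberg adjustment over all genes tested and a threshold of 0.05. Log2 fold changes are calcium-free KSW over cytochalasin D. The T0 fit used 12 libraries, T1 to T4 had their own fits, and the test over time points used the 60 libraries of both treatments. DESeq2 1.42.0 was an alternative. SEs were derived from the F statistic. The scripts were tested on simulated data. Principal components were taken from the 2000 most variable genes in log2 CPM, with a prior count of 2. One read equalled 2.25 to 4.01 CPM of the library total in calcium-free KSW and 2.64 to 3.52 in cytochalasin D.

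To see whether letters pair the libraries, deviations from the group means were correlated over genes above median abundance. Libraries of the same letter in the 2 treatments correlated at 0.304 to 0.595, those of the same letter pair but another letter at 0.0570 to 0.260, and those of other letter pairs at -0.474 to 0.206. Libraries of the same letter thus deviated most alike. They share both the letter pair and the set of letters (A to C or D to F). These values therefore cannot tell a pairing by single letter from the joint effect of pair and set. The letter pair stayed the main block, as the comparison was set up, and the single-letter block is printed beside it. The libraries most alike differed by 1.99 times the chi-square per degree of freedom that counting error gives, so none was treated as a repeat.

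Named genes had an adjusted p under 0.05 at T0, the same sign in all 3 letter pairs and an average level above the median; in each direction the smallest p and the largest fold change were taken. Gene lists by function and cell type markers need names and were not tested. The comparison, lists and tests were chosen with earlier results of these data known, and the split into letters D to F and A to C was added after the data were seen.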

Additional observations from a re-analysis of the deposited data

Results flagged for a closer look

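Outliers were looked for in 18 groups of 6 values, of which chance flags about 1 in 20; 2 stood out. Cytochalasin D T0 library B gave 24.9% of its reads to the 10 most abundant genes, far from the other 5 libraries of its group, which lay between 29.4% and 30.6%. Calcium-free library B, which was not flagged, was also the lowest of its group, at 22.4%. Both B libraries held the most reads of their groups, 379182 with cytochalasin D and 443489 with calcium-free KSW. NVE9824 had 70.4 CPM in cytochalasin D T0 library A, against 22.3 to 38.5 CPM in the others of its group.

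The treatment difference was itself found to differ in 3 tests. Between letters D to F and A to C it differed for 5 genes. Beyond the 3 described above, one averaged 295 CPM in D to F and 378 in A to C of calcium-free KSW, and 605 in D to F and 260 in A to C of cytochalasin D (T0 adjusted p by edgeR 0.476). The other averaged 75.7 CPM in D to F of calcium-free KSW, where A to C held no read, and 126.5 in D to F and 36.6 in A to C of cytochalasin D. Between letter pairs it differed for 1 gene, which averaged 366, 262 and 198 CPM in the pairs A/D, B/E and C/F of calcium-free KSW and 147.6, 566 and 959 CPM in those of cytochalasin D (edgeR adjusted p = 0.0282). Over time points it differed for 1 gene, which averaged 469 ± 147.2 CPM with calcium-free KSW and 209.7 ± 19.9 CPM with cytochalasin D at T0 (n = 6 each, SD). Its T0 log2 fold change was 1.12 (SE 0.19; edgeR adjusted p = 0.00183). Its log2 fold change at T1 to T4 was lower than at T0 by 0.69, 1.39, 2.19 and 1.97 (edgeR adjusted p of the test over time points 1.86e-06).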

How the results depend on the processing

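At T0 3.1% of the tested genes (101) passed. The share was 3.01% with RLE scaling, 2.58% (84 genes) with DESeq2, 3.26% with letters D to F alone and 2.18% in 1 fit of all 84 libraries. With a filter of 10 or more reads in 6 or more libraries, which kept more genes (3422), it was 3.01%. It was 0.859% (28) with no replicate block, 7.61% (248) with the single letter as a replicate block, 8.13% (265) with a term for letters D to F against A to C, 4.27% (160) with letters A to C alone, 4.78% (83 higher, 80 lower) with the 18 T0 libraries in 1 fit and 5.06% (302) with letter pairs summed. With no filter it was 1.03% of 21425 genes (220 genes, 25% of them higher). Without pair A/D, B/E or C/F it was 1.21%, 0.382% or 1.68%, and without 1 library 1.01% to 3.94%. The genes called changed too. Of the 101, DESeq2 called 72, the fit of 84 libraries 70, letters D to F alone 52 and A to C alone 61. RLE scaling called 98 of them, the filter by reads 100 and no filter 81. Leaving out 1 library kept as few as 32 of them. The share that varied between letter pairs was 0.0793% (17) with no filter and 0 to 0.0593% (2) without 1 library. The share whose treatment difference differed between letters D to F and A to C was 0.0467% (10) with no filter and 0.0579% to 0.261% without 1 library. With no replicate block 1.21%, 3.63% and 2.8% passed at T1, T3 and T4, and with the single letter as block 5.18% at T1 and 0.0278% (1) at T2; that block moved the T3 and T4 counts by under 1.5 times. T2 had 0 by edgeR, where 256 genes had an unadjusted p under 0.05; it had 0.222% (8) with DESeq2 and 5.79% (217) without calcium-free library F, when the test over time points called 0.111% (6). At T0, over 27 alternatives each, 0 named genes changed sign, and 1 call was lost, that of NVE9824 without letter pair B/E. The named genes were chosen on these same libraries with the same sign in all 3 letter pairs. A change of sign was therefore unlikely from the start, and these counts test nothing. The cause of these shifts was not tested.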
